A study of Mus musculus with 6 samples.

Results

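The genes described are the platelet-derived growth factor (PDGF) family and the class III receptor tyrosine kinases related to its receptors. They are 10 of the 36047 genes measured, chosen by name: the ligands Pdgfa, Pdgfb, Pdgfc and Pdgfd, the receptors Pdgfra and Pdgfrb, and the pairs Csf1 with Csf1r and Kitl with Kit. RNA-seq was performed on polyA RNA of MLE-12 cells, a wild-type murine line of lung epithelium that carries the SV40 large T antigen. The 3 CSE libraries came from cells given cigarette smoke extract, a solution of smoke constituents, at 5% and an optical density of 2.0. The 3 PBS libraries came from cells given the same volume of PBS. Both groups were grown in DME/F12 with 2% FBS, were treated at 30% density and were collected after 24 h. Whether the replicates are separate cultures is not stated, so p-values measure only the spread between libraries, which may be technical.

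PDGF ligands are dimers that bind a pair of receptor chains, which then phosphorylate each other and recruit SRC kinases, PI3-kinase and the RAS-MAPK cascade. In the lung, PDGF-A made by epithelial cells acts on PDGFRα-positive mesenchymal cells and is needed for alveolar septa to form. CSF1 sustains macrophages through CSF1R, and KIT ligand sustains mast cells, germ cells, melanocytes and blood progenitors through KIT.

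CSE cells had less Pdgfb RNA and more Pdgfra RNA than PBS cells, and in counts Kitl was lower and Csf1r higher. Once levels were scaled for transcript length, the groups of Kitl and of Csf1r overlapped. By edgeR's quasi-likelihood test, with a Benjamini-Hochberg adjusted p of 0.05 as the threshold, 4 of the 9 genes tested were called, against 11.4% of all 13451 genes tested. Of these, 2 were called higher (background 4.32%) and 2 were called lower (background 7.12%). In CPM, estimated counts scaled to library size, 6 of the 9 had groups that did not overlap, against 31.2% of all genes tested. Pdgfd fell below the count filter and was not tested. In bulk RNA, fewer cells of a type and less RNA per cell cannot be told apart.

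The levels spanned a wide range. In TPM, the abundance measure of the files that is scaled for transcript length and depth, Pdgfa averaged 511 TPM over the 6 libraries and Csf1 270 TPM, and each exceeded every gene below it in all 6 libraries. Pdgfb followed at 13.6 TPM and Kit at 8.43 TPM, with ranges that overlapped, although Pdgfb was the higher in each library. Pdgfra averaged 3.58 TPM, Kitl 2.98 TPM, Csf1r 1.88 TPM and Pdgfc 1.29 TPM. In this order the ranges of Pdgfra and Kitl, of Kitl and Csf1r and of Csf1r and Pdgfc overlapped, and Pdgfra exceeded Kitl in only 3 of the 6 libraries. Pdgfrb stood at 0.474 TPM and Pdgfd at 0.0972 TPM. The abundant members were thus ligands, and no receptor reached the level of Pdgfa or Csf1 in any library.

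**Figure D1:**
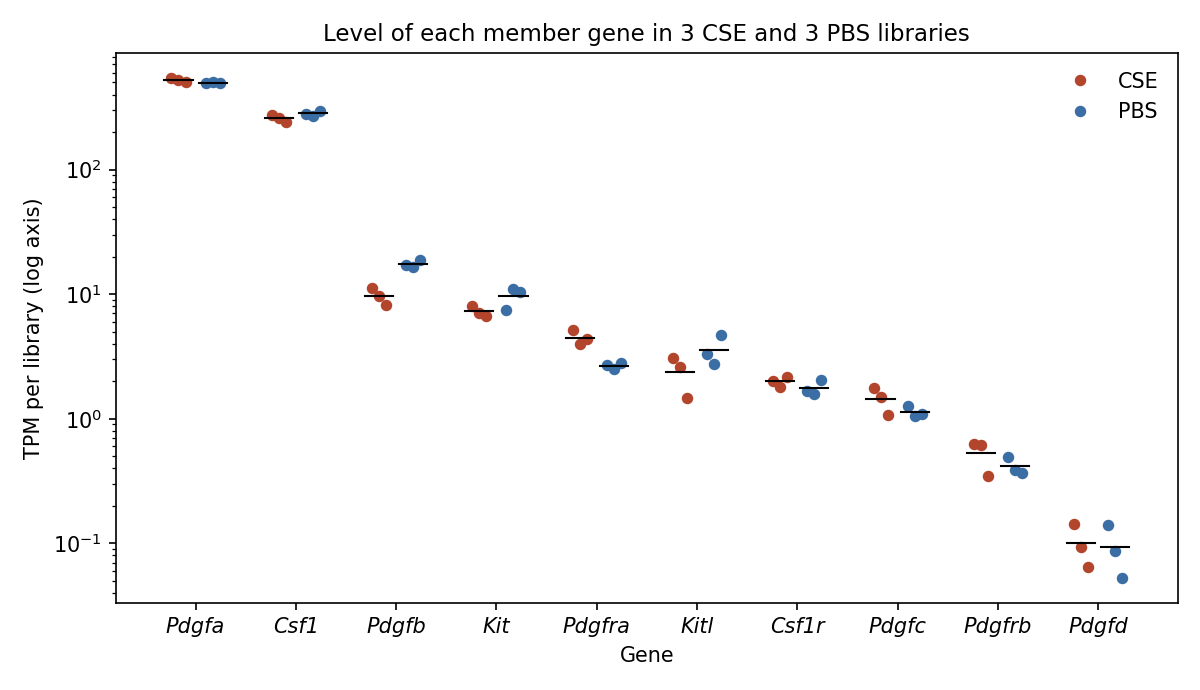
TPM (log axis) of the 10 genes in each library, CSE left of PBS, with each point a library and the line the group mean. Pdgfa and Csf1 lie far above the rest, and only Pdgfb and Pdgfra have groups that do not overlap on this scale.

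Libraries held between 12093009 and 24050167 estimated counts, and 3 counts corresponded to between 0.125 and 0.248 CPM. The extraction text names lung tissue as the RNA source, although all 6 samples are labelled MLE-12. Among epithelial markers, Krt8 averaged 160 ± 7.25 TPM in CSE cells and 206 ± 11.7 TPM in PBS cells (SD, n = 3 each), and the lung transcription factor Nkx2-1 106 ± 7.60 TPM in CSE cells and 121 ± 7.51 TPM in PBS cells. Krt18 was below 1 TPM, and Epcam averaged 1.54 TPM in CSE cells and 2.36 TPM in PBS cells. Of 8 epithelial markers tested, 4 fell in edgeR (Cdh1, Cldn3, Krt8 and Sftpc), against 7.12% of all genes called lower, and none rose. Only Cdh1 and Cldn3 kept their calls without any of CSE libraries 1, 2 and 3 or PBS library 1, where the list had 2 calls. The macrophage markers Adgre1, Marco and C1qa, the mast cell markers Cpa3, Tpsb2 and Fcer1a and the endothelial marker Cdh5 were listed at 0 in every library. These were 3 of 12, 3 of 10 and 1 of 6 genes on their lists, and the other listed genes carried counts. Cd68 of the macrophage list, Gata2 of the mast cell and progenitor list and Pecam1 and Vwf of the endothelial list averaged at least 1 TPM over the libraries. Of the 6 endothelial markers, 4 were below 1 TPM, and neither of the 2 tested was called in edgeR. Their summed level lay between 1.42 and 3.41 TPM in CSE cells and between 2.28 and 2.90 TPM in PBS cells.

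Of the ligands, Pdgfb fell in CSE cells. Pdgfb (ENSMUSG00000000489, chr15:79995874-80014977 of GRCm38, minus strand) encodes PDGF-B, the ligand of both receptor chains that recruits pericytes to vessels. It had 11.3, 9.67 and 8.18 TPM in CSE libraries 1 to 3, against 17.3, 16.5 and 18.9 TPM in PBS libraries 1 to 3. Every CSE library lay below every PBS library. The same held in CPM, with means of 17.9 in CSE cells and 30.4 in PBS cells. The log2 change was -0.77 ± 0.10 (SE, n = 3 each), with an adjusted p of 0.000685 in edgeR. Pdgfb-201, of 241 codons, carried 97.6% of the gene's TPM.

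Kitl also fell in counts. Kitl (ENSMUSG00000019966, chr10:100015630-100100416, plus strand) encodes the ligand of KIT, which is made as a membrane protein. It had 5.97, 4.77 and 4.64 CPM in CSE cells, against 8.32, 8.47 and 9.21 CPM in PBS cells. No CSE library reached the lowest PBS library, and the log2 change was -0.78 ± 0.15 (SE, n = 3 each; adjusted p = 0.00597, edgeR). In TPM the groups overlapped, at 3.09, 2.59 and 1.46 TPM in CSE cells and 3.31, 2.76 and 4.66 TPM in PBS cells, and limma on log2(TPM + 1) gave -0.45 (adjusted p = 0.315). With an offset for effective transcript length, edgeR gave -0.54 (adjusted p = 0.238).

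The transcripts of Kitl show where the scales part. Kitl-202, of 273 codons, includes exon 6, the 84-base exon at chr10:100080857-100080940 that holds the main site at which the membrane protein is cut to a soluble factor. Kitl-201, of 245 codons, skips it and encodes the form that largely stays on the membrane. The exon is printed in capitals between its flanking bases, beside the junction of the form without it; both run along the plus strand of GRCm38 within chr10:100080116-100087361.
Kitl-202: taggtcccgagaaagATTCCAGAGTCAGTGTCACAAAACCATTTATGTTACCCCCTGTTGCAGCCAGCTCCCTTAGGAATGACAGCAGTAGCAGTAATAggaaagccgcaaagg
Kitl-201: taggtcccgagaaagggaaagccgcaaagg
Kitl-202 had 1.35, 0.990 and 1.18 TPM in CSE cells, against 2.01, 2.33 and 2.33 TPM in PBS cells, and the groups did not overlap. Kitl-201 had 1.70, 1.59 and 0 TPM in CSE cells, against 1.30, 0.433 and 2.34 TPM in PBS cells, with groups that overlapped widely. At the transcript level, the log2 change of Kitl-202 was -0.84 ± 0.20 (SE, n = 3 each) with an adjusted p of 0.180 in edgeR, while DESeq2 gave -0.85 and 0.0136. Kitl-202 carried 87.5% of the gene's counts but 57.0% of its TPM. Most of what separates it from the other transcripts is its long 3′ end: of its 5618 words of 31 bases, 3542 occur in no other transcript. Kitl-201 has 30 such words, so the split between these forms also rests on a small stretch.

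Pdgfa (ENSMUSG00000025856, chr5:138976014-138997370, minus strand) encodes PDGF-A, which binds PDGFRα only. It had 395, 397 and 406 CPM in CSE cells, against 373, 340 and 337 CPM in PBS cells. All CSE libraries lay above all PBS libraries, and the log2 difference was 0.19 ± 0.07 (SE, n = 3 each), but the adjusted p was 0.115 in edgeR. Without PBS library 1 it was 0.24 with an adjusted p of 0.0378. In TPM, CSE cells averaged 525 ± 18.0 and PBS cells 498 ± 7.93 (SD, n = 3 each), with groups that overlapped.

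PDGF-A is made in a long form, whose basic tail holds it at the cell surface and matrix, and a short form that diffuses. Pdgfa-201, of 211 codons, carries the exon for the tail, whereas Pdgfa-202, of 196 codons, passes over it. The coding ends of both are printed after their last shared bases, with the part that differs in capitals (chromosome 5 of GRCm38, minus strand, within 138978638 to 138979169 for Pdgfa-201 and 138977220 to 138979169 for Pdgfa-202).
Pdgfa-201: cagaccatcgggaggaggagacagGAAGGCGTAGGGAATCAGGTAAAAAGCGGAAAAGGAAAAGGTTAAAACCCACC
Pdgfa-202: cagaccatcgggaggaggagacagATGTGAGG
The long form made up 51.4% ± 3.4 of long and short forms together in CSE cells and 52.0% ± 2.3 in PBS cells (SD, n = 3 each; exact permutation test, two-sided, p = 0.7). A comparison of 3 libraries with 3 cannot give a p below 0.1 in that test. These percentages leave out Pdgfa-207, a processed transcript with no annotated coding bases, which carried 22.6% of the gene's TPM. Of the whole TPM of Pdgfa, Pdgfa-201 carried 39.9%. In TPM, Pdgfa-201 averaged 210 ± 13.7 in CSE cells and 198 ± 3.74 in PBS cells. Pdgfa-202 had 59.9, 57.2 and 52.4 TPM in CSE cells, against 44.1, 41.6 and 47.3 TPM in PBS cells, and every CSE library exceeded every PBS library. Its log2 difference was 0.44 ± 0.08 (SE, n = 3 each), with an adjusted p of 0.0733 in edgeR and 0.000168 in DESeq2. Pdgfa-204, a further short-form transcript with 27.1% of the gene's TPM, averaged 141 ± 18.9 TPM in CSE cells and 136 ± 9.23 TPM in PBS cells. It shares 325 of its 1257 words of 31 bases with 6330403L08Rik on the other strand. No transcript of 6330403L08Rik was among those matched, so it has no level here. How many Pdgfa-204 counts came from its RNA was not tested.

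Csf1 (ENSMUSG00000014599, chr3:107741048-107760469, minus strand) encodes the macrophage growth factor. It had 526, 507 and 489 CPM in CSE cells, against 549, 491 and 534 CPM in PBS cells. The groups overlapped, and the log2 difference of -0.05 ± 0.07 (SE, n = 3 each) had an adjusted p of 0.734 in edgeR. Csf1-202, with 75.4% of the gene's TPM, starts exon 6 885 bases further in than Csf1-201, so that its reading frame has 257 codons in place of 552. The missing 295 codons fall in the stretch that carries the cleavage sites for release of soluble CSF1, and the short product is known as the cell-surface form. The exon junctions of both are printed with the first bases of exon 6 in capitals (minus strand, within chr3:107749150-107750330 for Csf1-201 and chr3:107748265-107750330 for Csf1-202).
Csf1-201: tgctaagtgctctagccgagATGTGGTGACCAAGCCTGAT
Csf1-202: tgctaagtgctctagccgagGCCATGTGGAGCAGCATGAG
The short form made up 76.7% ± 1.1 of short and full forms in CSE cells and 75.8% ± 2.7 in PBS cells (SD, n = 3 each; exact permutation test, two-sided, p = 0.8). Csf1-203, a second transcript for the full form, had 21.4, 22.7 and 22.7 TPM in CSE cells, against 25.2, 24.5 and 26.1 TPM in PBS cells. These groups did not overlap in TPM but did in CPM, where the log2 difference was -0.09 with an adjusted p of 0.840 in edgeR. Csf1-202 has no 31-base word of its own, against 227 in Csf1-201 and 246 in Csf1-203. Its share thus rests on words that it has in common with other transcripts.

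Pdgfc and Pdgfd encode ligands that proteases must cut free of an N-terminal CUB domain before they bind. Pdgfc (ENSMUSG00000028019, chr3:81036416-81214040) had between 1.08 and 1.75 TPM in CSE cells and between 1.06 and 1.27 TPM in PBS cells. The groups overlapped, and the log2 difference was 0.43 ± 0.25 (SE, n = 3 each; adjusted p = 0.304, edgeR). Pdgfc-202, annotated as a target of nonsense-mediated decay with 57 codons, carried 86.1% of this TPM. Pdgfc-201, which encodes the full 345-codon ligand, was given 8.28 counts in CSE library 1 and was listed at 0 in the other 5 libraries. Pdgfc-202 has no 31-base word of its own, against 790 in Pdgfc-201. Pdgfd (ENSMUSG00000032006, chr9:6168584-6378850) had 9 counts over the CSE libraries and 7 over the PBS libraries. Scaled to depth, the ratio of CSE to PBS was 1.24, with a 95% exact binomial interval of 0.410 to 3.91 that covers counting error only (exact permutation test on CPM, two-sided, p = 0.6).

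Of the receptors, Pdgfra rose in CSE cells. Pdgfra (ENSMUSG00000029231, chr5:75152292-75198215, plus strand) encodes the chain that binds PDGF-A, -B and -C and is a marker of lung fibroblast lineages. It had 5.11, 3.98 and 4.36 TPM in CSE cells, against 2.71, 2.50 and 2.81 TPM in PBS cells. Every CSE library lay above every PBS library, also in CPM, where CSE cells had 18.5, 15.7 and 18.5 and PBS cells 10.5, 8.58 and 10.2. The log2 change was 0.84 ± 0.12 (SE, n = 3 each; adjusted p = 0.00125, edgeR). In limma the change was 0.57 on the log2(TPM + 1) scale and 0.72 on the log2(TPM + 0.1) scale, with adjusted p-values of 0.0563 and 0.0561.

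Markers of fibroblasts and mural cells were read beside Pdgfra. Of 13 markers, 10 were below 1 TPM, and Dcn, Col1a1 and Tagln were not. Of the 3 tested, 2 fell (7.12% of all genes were called lower), 1 was not called and none rose. Whether RNA of such cells contributed to Pdgfra was not tested. Dcn, a matrix proteoglycan, averaged 507 ± 37.4 TPM in CSE cells and 954 ± 136 TPM in PBS cells, and Col1a1, a collagen chain, 9.05 ± 0.574 TPM in CSE cells and 14.7 ± 0.446 TPM in PBS cells (SD, n = 3 each). Their log2 changes were -0.83 and -0.60 in edgeR, with adjusted p-values of 0.000506 and 0.000353. The summed level of the list lay between 485 and 549 TPM in CSE cells and between 879 and 1144 TPM in PBS cells, nearly all of it Dcn.

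The difference in Pdgfra was assigned to transcripts that encode the full receptor of 1089 codons. Pdgfra-201 and Pdgfra-202 together had 3.80, 3.32 and 3.91 TPM in CSE cells, against 2.17, 1.66 and 2.34 TPM in PBS cells, without overlap. Pdgfra-208, for a shortened product of 790 codons, had 1.31, 0.536 and 0.452 TPM in CSE cells, against 0.534, 0.842 and 0.467 TPM in PBS cells, with overlap. Pdgfra-201 was given 109, 130 and 222 counts in CSE cells, against 53.2 counts and values near 0 in the other 2 PBS libraries. Its log2 difference had an adjusted p of 0.650 in edgeR, and its counts varied widely within each group. Pdgfra-201 differs from Pdgfra-202 in its first exon and has only 14 words of 31 bases found in no other transcript, against 416 in Pdgfra-202. The split between these starts rests on few distinguishing words. Pdgfra-208 likewise has only 14 words found in no other transcript.

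**Figure D2:**
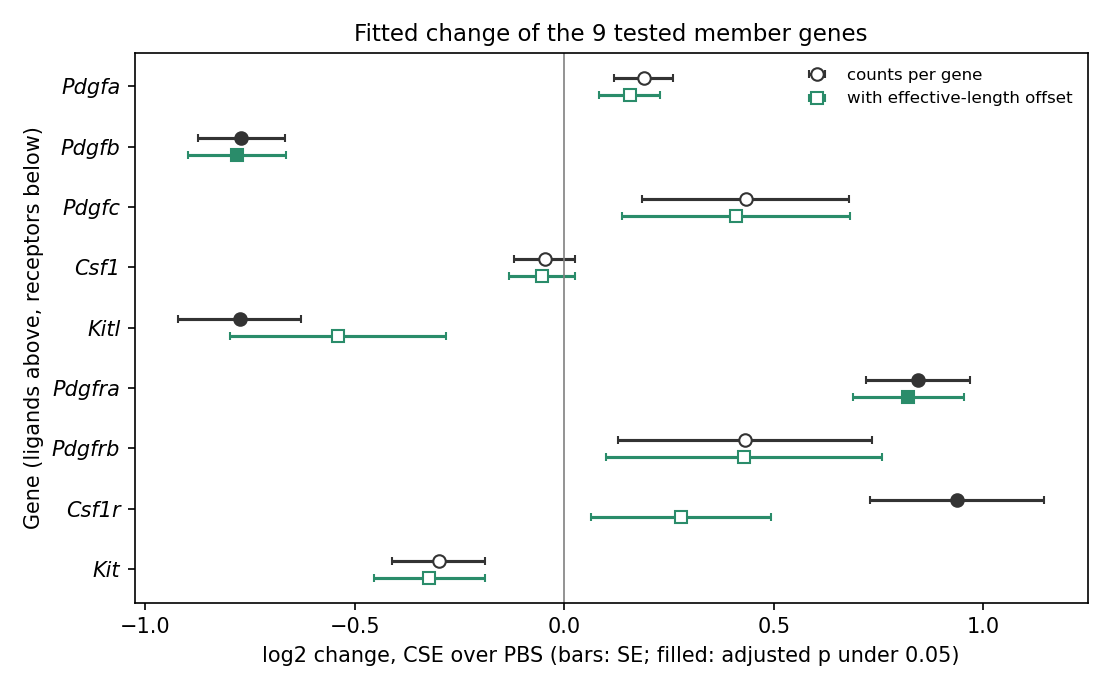
Log2 change (CSE over PBS) of the 9 tested genes, with each point the edgeR estimate and each bar its SE, beside the estimate with an offset for effective transcript length. Csf1r and Kitl lie nearer 0 with the offset, while Pdgfb and Pdgfra keep their calls.

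Pdgfrb (ENSMUSG00000024620, chr18:61045150-61085061, plus strand) encodes the chain that marks pericytes and vascular muscle and ends 15.5 kb before the start of Csf1r. It had 0.631, 0.618 and 0.345 TPM in CSE cells, against 0.495, 0.388 and 0.370 TPM in PBS cells. The groups overlapped, and the log2 difference of 0.43 ± 0.30 (SE, n = 3 each) had an adjusted p of 0.405 in edgeR. The counts behind it were few, at 99 over the CSE libraries and 70 over the PBS libraries.

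Csf1r (ENSMUSG00000024621, chr18:61100598-61132149, plus strand) encodes the CSF1 receptor of macrophages. Its counts rose in CSE cells. Csf1r had 4.14, 5.14 and 4.82 CPM in CSE cells, against 3.10, 2.44 and 1.99 CPM in PBS cells, without overlap. The log2 change was 0.94 ± 0.21 (SE, n = 3 each; adjusted p = 0.0147, edgeR). In TPM the groups overlapped, at 2.02, 1.80 and 2.17 in CSE cells and 1.66, 1.57 and 2.05 in PBS cells. With the length offset, edgeR gave 0.28 (adjusted p = 0.480), and limma on log2(TPM + 1) gave 0.12 (adjusted p = 0.751). Without CSE library 2, CSE library 3 or PBS library 3 the adjusted p in edgeR was 0.0859, 0.0598 and 0.0704.

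Only 2 of the 6 annotated Csf1r transcripts carried counts. Csf1r-202, of 977 codons, had 46.8, 122 and 75.4 counts in CSE cells, against 37.2, 40.3 and 29.4 counts in PBS cells, and held 92.7% of the gene's counts. Csf1r-203, of 139 codons, had 3.01, 1.00 and 5.01 counts in CSE cells, against 3.70, 5.01 and 10.1 counts in PBS cells. It is only 776 bases long, so these few counts made up 25.1% ± 16.4 of the gene's TPM in CSE cells and 56.4% ± 15.1 in PBS cells (SD, n = 3 each; exact permutation test, two-sided, p = 0.1, the smallest possible). Csf1r-201 was listed at 0 in all 6 libraries. Effective length, which enters TPM but not the counts, differed accordingly. Weighted by TPM, its mean for Csf1r was 3491 bases in CSE cells and 2256 bases in PBS cells, a ratio of 1.55. For the other called genes this ratio was 0.871 for Kitl, 1.02 for Pdgfra and 1.01 for Pdgfb.

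**Figure D3:**
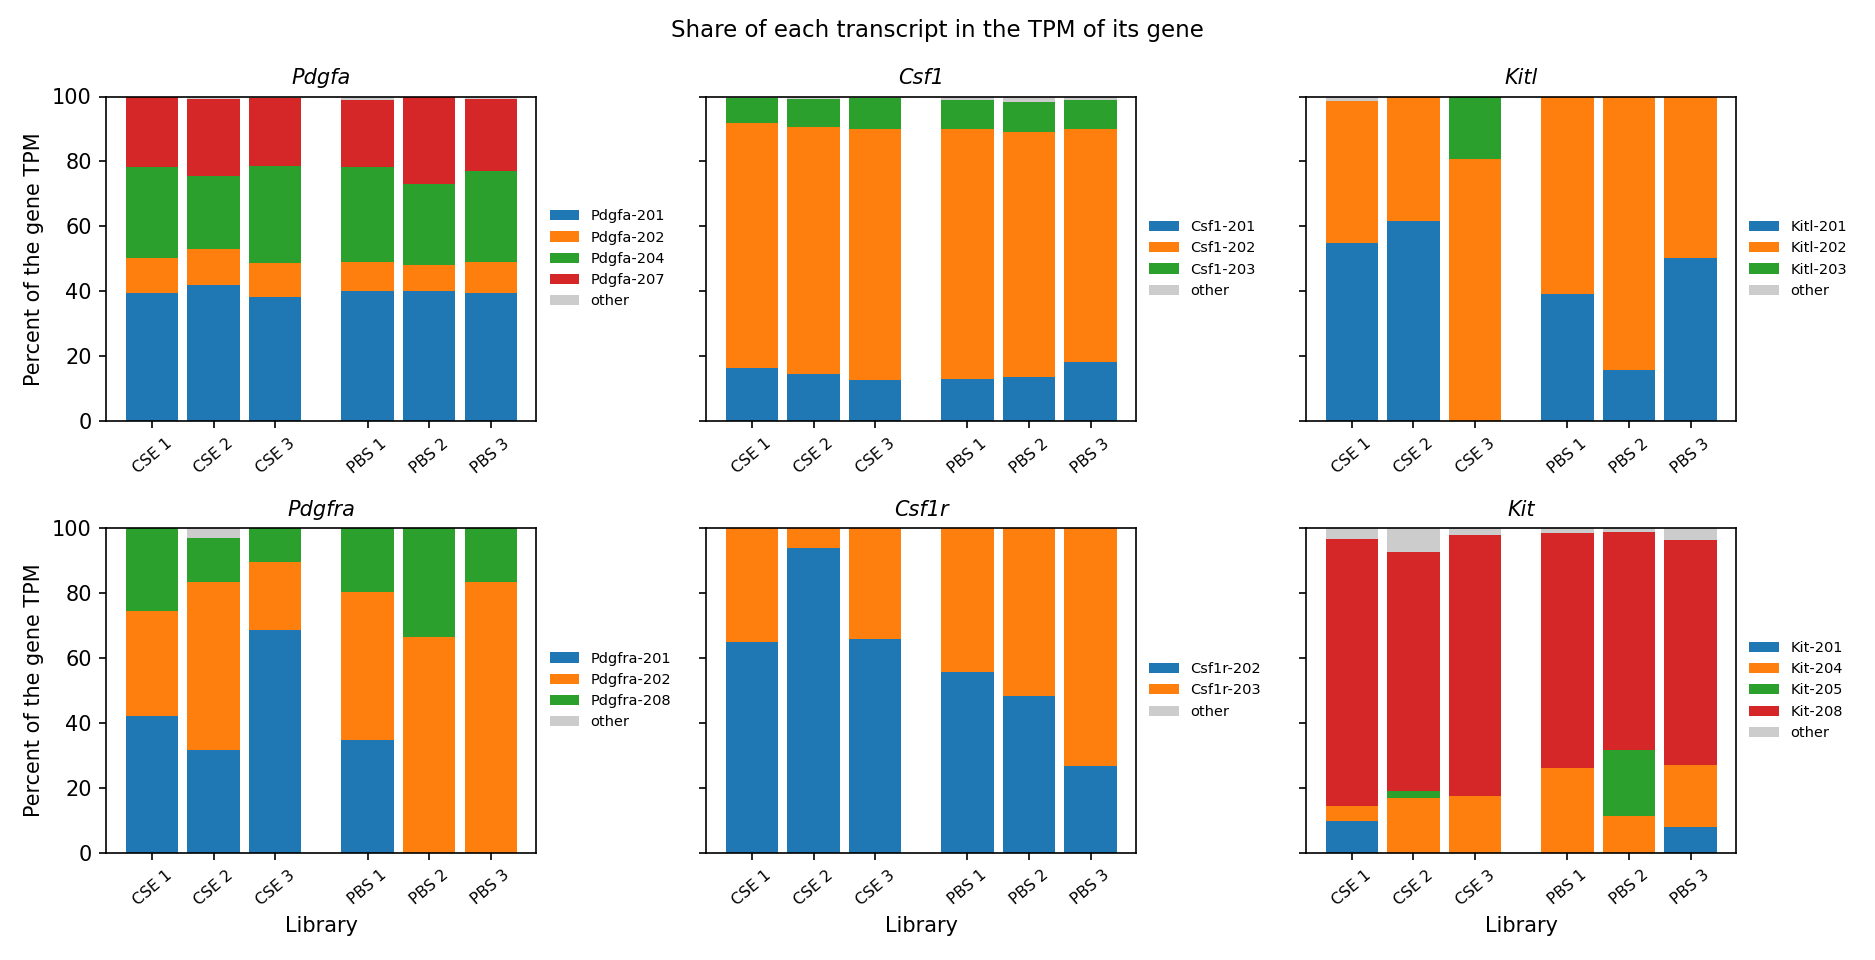
Percent of each gene's TPM carried by its transcripts in each library, CSE libraries left of PBS libraries, for genes with several transcripts. Csf1-202 and Kit-208 lead their genes in every library, whereas the shares within Csf1r, Kitl and Pdgfra vary from library to library.

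Csf1r-202 runs 1015 bases past the end of Csf1r-201. Of these bases, 873 lie inside exons of Hmgxb3, a gene for an HMG-box protein transcribed from the other strand. In the sequence itself, 843 of the 4671 words of 31 bases in Csf1r-202 (18.0%) also occur in Hmgxb3 transcripts, and 172 occur in no other transcript. Whether the reads were counted by strand is not given in the sources used here, so reads from the shared stretch cannot be assigned to a strand with certainty. Hmgxb3 itself was the more abundant, at 15.4 ± 0.527 TPM in CSE cells and 18.2 ± 2.48 TPM in PBS cells (SD, n = 3 each), with groups that overlapped. The log2 difference of Hmgxb3 was -0.13 ± 0.08 (SE, n = 3 each), with an adjusted p of 0.330 in edgeR. The 4 Hmgxb3 transcripts that overlap the tail had 1927 counts over the CSE libraries and 2066 over the PBS libraries. How many Csf1r counts came from Hmgxb3 RNA was not tested.

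**Figure D4:**
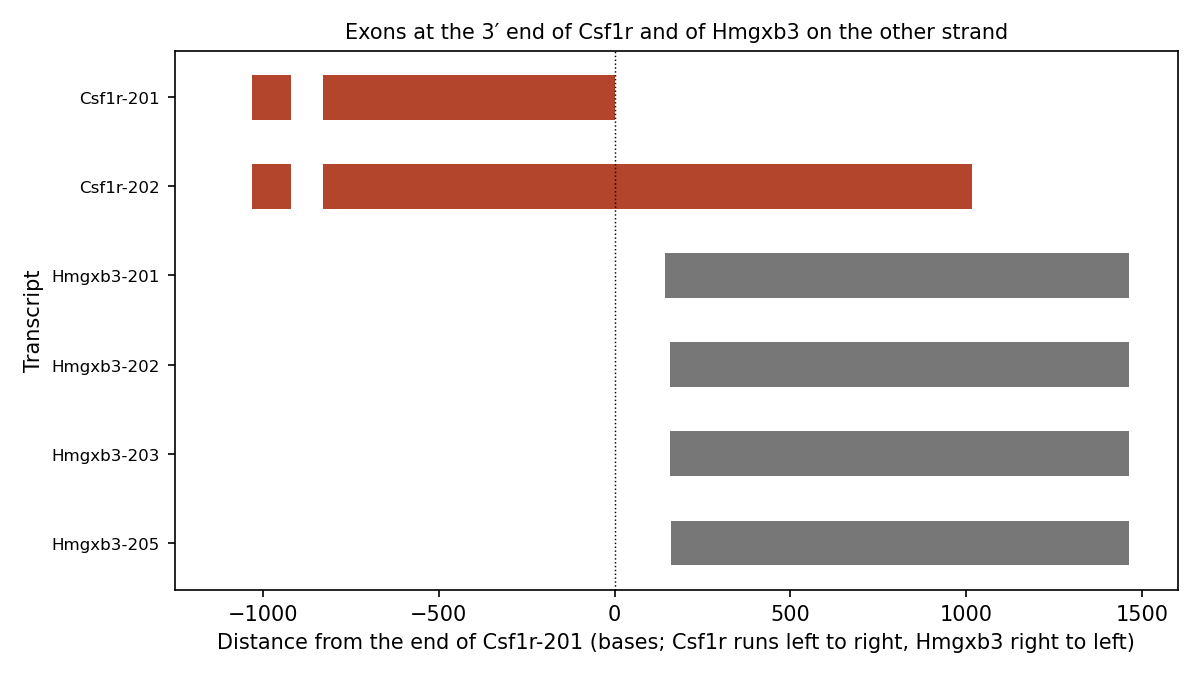
Exons of Csf1r and Hmgxb3 transcripts around the end of Csf1r-201 (x axis, distance in bases; rows, transcripts), with Csf1r transcribed to the right and Hmgxb3 to the left. The last exon of Csf1r-202 runs 1015 bases past that end, into the last exon of Hmgxb3.

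Macrophage markers were read beside Csf1r, which lay between 1.57 and 2.17 TPM over the libraries. Of 12 markers, all but Cd68 (11 genes) were below 1 TPM, and none of the 3 tested was called in edgeR. Whether macrophage RNA contributed to Csf1r was not tested. The summed level of the 12 markers lay between 3.17 and 6.02 TPM in CSE cells and between 4.58 and 7.24 TPM in PBS cells.

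Kit (ENSMUSG00000005672, chr5:75574916-75656722, plus strand) encodes the receptor of KIT ligand. It lies on the same chromosome as Pdgfra, 377 kb beyond its end. It had 17.2, 15.1 and 15.7 CPM in CSE cells, against 17.7, 19.1 and 21.9 CPM in PBS cells. Each CSE library lay below each PBS library, yet the log2 difference of -0.30 ± 0.11 (SE, n = 3 each) had an adjusted p of 0.114 in edgeR. Mast cell and progenitor markers were below 1 TPM for 9 of 10 genes, and their summed level lay between 3.46 and 3.94 TPM in CSE cells and between 3.00 and 5.06 TPM in PBS cells.

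Most of the Kit TPM was assigned to a transcript that does not encode the receptor. Kit-208, annotated as a retained intron, begins inside intron 16 of Kit-204, keeps 453 bases of it and continues through the last 5 of its 21 exons. It carried 73.5% of the TPM of Kit. A truncated KIT made from an intronic start near this position is known from mouse spermatids. The junction is printed from chr5:75649507-75649566 of GRCm38, plus strand, with retained intron bases in lower case and the first bases of exon 17, which encodes part of the kinase domain, in capitals.
Kit-208: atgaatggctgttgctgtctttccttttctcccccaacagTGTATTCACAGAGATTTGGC
Kit-208 had 6.67, 5.17 and 5.37 TPM in CSE cells, against 5.41, 7.34 and 7.19 TPM in PBS cells, with overlap. Transcripts for the full receptor, Kit-204 of 975 codons and Kit-201 with 4 codons more, together had 1.16, 1.17 and 1.16 TPM in CSE cells, against 1.95, 1.26 and 2.80 TPM in PBS cells. These groups did not overlap, and PBS cells varied more than CSE cells. Kit-201 was given 31.5 counts in CSE library 1 and 48.4 in PBS library 3, and was listed at 0 elsewhere. Of the 3145 words of 31 bases in Kit-208, 99 occur in no other transcript, against 65 such words in Kit-204 and 38 in Kit-201. The split between Kit-208 and the full receptor thus rests on few distinguishing words. Counted over protein-coding transcripts alone, a choice made after seeing the data, the log2 difference of Kit was -0.70 ± 0.26 (SE, n = 3 each; adjusted p = 0.125, edgeR). Kit-208 made up 78.9% ± 4.5 of the TPM of Kit in CSE cells and 69.6% ± 2.7 in PBS cells (SD, n = 3 each; exact permutation test, two-sided, p = 0.1).

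Over all 55 annotated transcripts of the 10 genes, 41 carried counts and 20 were tested. In edgeR none of these was called, against 0.908% of all 33930 transcripts tested. In CPM, 8 had groups that did not overlap, against 18.6% of all transcripts tested. At an unadjusted p under 0.05 there were 6, against 10.7% of all transcripts tested. DESeq2 called 3, namely Kitl-202, Pdgfb-201 and Pdgfa-202, and 1349 of all 21382 transcripts to which it gave an adjusted p (6.31%). The biological coefficient of variation was 42.2% for transcripts and 9.17% for genes.

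The genes that act with the receptors and ligands were read from 5 lists. Of 77 genes listed, 69 were tested; 1 was called higher and 9 lower in CSE cells, which makes 14.5% called against 11.4% of all genes. Their median log2 change was -0.09, against 0.01 over all genes tested.

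Among proteases that free or shed the ligands, together with the urokinase receptor, the called proteases were lower. Of 10 genes tested, 1 rose and 3 fell in edgeR, against 4.32% of all genes called higher and 7.12% called lower, with a median log2 change of -0.17. Plat, the tissue plasminogen activator that cuts PDGF-C, averaged 124 ± 5.70 TPM in CSE cells and 222 ± 17.4 TPM in PBS cells (SD, n = 3 each), a log2 change of -0.76 ± 0.07 (SE). Plau, the urokinase that cuts PDGF-D, averaged 2.00 ± 0.218 TPM in CSE cells and 4.22 ± 1.11 TPM in PBS cells, a log2 change of -1.01 ± 0.20. The urokinase receptor Plaur rose, with a log2 change of 0.56 ± 0.11, while limma on log2(TPM + 1) gave 0.45 (adjusted p = 0.0628). Pcsk5, a proprotein convertase, averaged 5.66 ± 0.569 TPM in CSE cells and 11.6 ± 0.839 TPM in PBS cells, a log2 change of -0.97 ± 0.08. Both plasminogen activators fell while the urokinase receptor rose, with adjusted p-values in edgeR of 4.86e-05 for Plat, 0.00791 for Plau and 0.00875 for Plaur.

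Co-receptors and ligand-binding proteins fell or were not called. Of 8 tested, 4 fell and none rose in edgeR, against 7.12% of all genes called lower and 4.32% called higher, and the median log2 change was -0.28. Sparc, a matrix protein that binds PDGF-B, averaged 2026 ± 101 TPM in CSE cells and 3067 ± 161 TPM in PBS cells, a log2 change of -0.44 ± 0.08 (SE, n = 3 each). Hspg2, the heparan sulfate proteoglycan perlecan, averaged 160 ± 20.1 TPM in CSE cells and 275 ± 43.9 TPM in PBS cells. Lrp1, an endocytic receptor that associates with PDGFRβ, averaged 53.7 ± 4.05 TPM in CSE cells and 86.3 ± 13.9 TPM in PBS cells, and Nrp1, a co-receptor for several growth factors, 283 ± 28.8 TPM in CSE cells and 383 ± 34.1 TPM in PBS cells. Their log2 changes were -0.68 for Hspg2, -0.66 for Lrp1 and -0.36 for Nrp1. The call of Nrp1 was lost without CSE library 2, CSE library 3 or PBS library 3, with adjusted p-values of 0.104, 0.0846 and 0.0531 in edgeR.

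Downstream of the receptors few genes were called. Of 36 genes that relay the signal, the AKT kinase gene Akt2 fell, with a log2 change of -0.25 ± 0.07 (SE, n = 3 each; adjusted p = 0.0405, edgeR), and 35 were not called, against 7.12% of all genes called lower. The call of Akt2 was lost with the length offset (adjusted p = 0.0871), with no filter on low counts (0.0572) and in 5 of the 6 fits that left out a library, where the adjusted p reached 0.178; it held without PBS library 2. Of 14 negative regulators, the adaptor gene Dok1 fell, with a log2 change of -0.38 ± 0.06 (adjusted p = 0.00265, edgeR). The median log2 changes were -0.09 for signal relay and 0.03 for negative regulators. Of the remaining class III genes, Flt3l, the FLT3 ligand, averaged 10.6 ± 1.72 TPM in CSE cells and 11.3 ± 0.744 TPM in PBS cells and was not called. Flt3, its receptor, had 23 counts over the CSE libraries and 15 over the PBS libraries. Il34, the other CSF1R ligand, had 0 counts in CSE cells and 3 in PBS cells, and neither was tested.

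**Figure D5:**
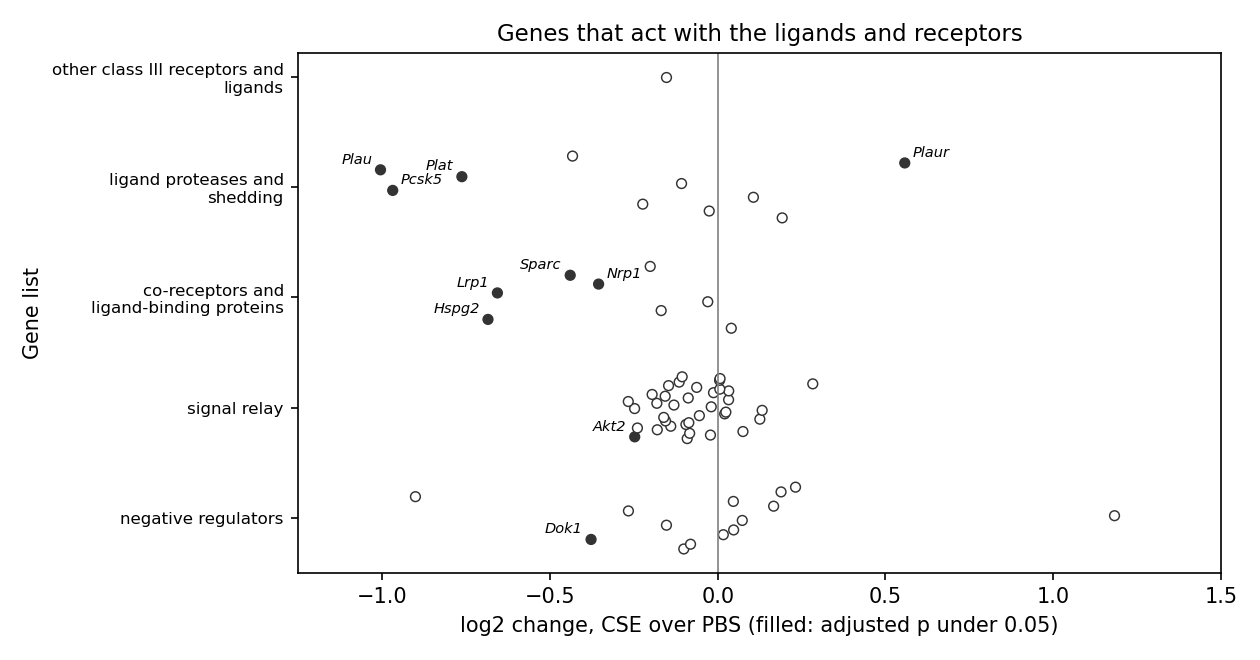
Log2 change (x axis, CSE over PBS) of each tested gene in 5 lists (rows), with filled points for genes called in edgeR. The called co-receptor genes and the called proteases lie below 0, and the urokinase receptor Plaur is the called gene above 0.

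The genes whose pattern over the 6 libraries was most like that of each member were ranked by the root mean square difference of centred log2 CPM. Nearest to Pdgfb were Gpr179, Ano1 and Kctd15, at 0.0557, 0.0614 and 0.0624. Nearest to Kitl were Mgll, Ccser1 and again Kctd15, at 0.0519, 0.0535 and 0.0569. Nearest to Pdgfra were C1s1, Mal and Sqor, at 0.0620, 0.0745 and 0.0948. For Csf1r they were Gzmd, Pkd1l2 and Fth1, at 0.101, 0.103 and 0.119. Pdgfrb and Pdgfc were both of low count. For Pdgfrb the nearest were Ttc9, Pdgfc and Top1mt, at 0.122, 0.125 and 0.159. For Pdgfc they were Efemp2, Sp6 and Tmem255a, at 0.0840, 0.0870 and 0.0994. For Kit the nearest was Kmt2c, for Pdgfa Acsl5 and for Csf1 Cerk.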

How the data were processed

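Each deposited file lists an estimated count, a TPM value and an effective length for each of 118489 transcripts, per the file headers, whose columns are those of kallisto. TPM was computed by the authors from estimated counts and effective length, and removes depth. Per the submitters' processing notes, fastp 0.20.1, FastQC 0.12.1, kallisto 0.46.2 and DESeq2 1.40.2 were used with GRCm38. Index, trimming and strand settings were not given in the sources used here. Where transcripts overlap, kallisto apportions their common reads statistically, so the counts of each are estimates.

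Groups and replicate numbers came from the sample titles. Transcripts were matched to GENCODE vM21 (98.6% matched; the other 1673 held 0.638% to 0.664% of counts), and sequences were read from its GRCm38 files. Estimated counts and TPM were summed per gene, and counts were rounded. edgeR 4.0.16 (filterByExpr, minimum count 10; TMM factors 0.976 to 1.03) compared CSE with PBS by the two-sided quasi-likelihood test, with adjustment over all genes or all transcripts tested. Transcript shares are percent of a gene's TPM. Alternatives were RLE and library-size scaling, other filters, DESeq2 1.42.0, limma 3.58.1 (voom, and log2(TPM + 1) or log2(TPM + 0.1) for a mean of at least 1 TPM), a length offset, a replicate block and leaving out each library; the fit over protein-coding transcripts alone was added once the data had been seen. Both fits were checked on simulated counts. Within groups, chi-square per degree of freedom between libraries was 6.00 to 19.1, so none was a duplicate.

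The 10 genes and the lists were chosen with earlier results of these data known, and 1 gene of the protease list is not reported here. Named genes were the 10 with their transcripts of at least 5% of gene TPM, up to 4 called genes a list by p, defining markers, and the 3 nearest genes in pattern. Hmgxb3 was chosen after its overlap was seen. R 4.3.3, Python 3.11.15, pandas 2.3.3, SciPy 1.17.1 and matplotlib 3.10.9 were used.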

Additional observations from a re-analysis of the deposited data

How the results depend on the processing

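Of the 10 genes, 4 were called; limma on log2(TPM + 1) and on log2(TPM + 0.1) each called 1 (Pdgfb), the length offset called 2, and leaving out each library gave 3 to 5. Pdgfb kept its direction and call under all 17 alternatives. No direction reversed among the 9 tested genes, and the untested Pdgfd ratio of 1.24 was 0.894 without PBS library 3. Pdgfra had 0.57 and 0.72 with limma at pseudocounts of 1 and 0.1, no longer called. Kitl had -0.45 and -0.60 there and -0.54 with the offset, all uncalled. Csf1r had 0.12 and 0.18 with limma and 0.28 with the offset, and 0.79 to 1.10 with a library left out, of which 3 lost the call. Pdgfa ranged from 0.16 to 0.24 with a library left out, and was called only without PBS library 1. Over all genes, 1539 were called, 998 and 985 with limma at the same pseudocounts, and 837 to 1941 with a library left out; 224 of the 998 were higher (22.4%, against 37.8% of the 1539). With no filter 47.9% were higher, and without PBS library 1 49.8%. Of transcripts, 308 were called, 1349 by DESeq2 and 12 to 124 with a library left out. Beyond the length offset's own construction, the cause was not tested.

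The replicate numbers did not pair the libraries: same-number correlations lay between -0.124 and 0.006, and 1 of 6 libraries correlated best with its own number. With the number as a block, edgeR called 1022 genes and 2 transcripts, and Pdgfb, Pdgfra, Csf1r and Kitl were still called, whereas Akt2 (adjusted p = 0.126), Krt8 (0.109), Nrp1 (0.0648) and Sftpc (0.0590) were not. A minimum mean of 5 CPM left no value for Csf1r, Pdgfc and Pdgfrb, the TPM fits none for Pdgfrb, and protein-coding transcripts alone none for Pdgfc. Low counts limit Csf1r, Pdgfc, Pdgfrb and Pdgfd, and few distinguishing words limit transcript shares.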
